A study of Mus musculus with 12 samples.

Results

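Bone marrow KSL cells carry Kit and Sca-1, lack lineage markers, and hold the blood stem cells and early progenitors. Described here are 7 genes of heme synthesis and iron transport in these cells: Alad, Cpox, Abcb6, Tfrc, Steap3, Slc11a2 and Slc40a1. They are 7 of the 325 genes that the authors' deposited table of changed genes names alone. The members were selected on measured values: a gene enters the table when a probe set, the group of array probes for 1 transcript, differs at least 2-fold between irradiated and non-irradiated cells at an unadjusted p under 0.05. That contrast cannot therefore be tested again on the same arrays, and the differences between groups below are descriptions. The control group is 6 arrays of KSL cells from C57Bl/6 mice that received no irradiation (0 cGy). The second group is 6 arrays of KSL cells from C57Bl/6 mice given 550 cGy from a cesium source. All mice were raised to 10 weeks, and the series' design places the isolation at day 14 after irradiation. The labels do not say whether an array is 1 mouse or a pool, or whether arrays came from separate mice, so the spread between arrays may be technical.

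Heme is built in a chain of enzymes that starts and ends in the mitochondrion and passes through the cytosol, where delta-aminolevulinate dehydratase acts. The last step inserts iron, which most cells and above all red cell precursors take up as transferrin through the transferrin receptor. In the endosome the iron is released, reduced by a ferrireductase and carried into the cytosol by a divalent metal transporter, and the cell can export it again through ferroportin. Red cell precursors make large amounts of heme for hemoglobin.

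The 250 bases before the most upstream transcript start were read for the members from RefSeq windows (GRCm38.p6), which matched 5 of the 7, Alad, Cpox, Abcb6, Tfrc and Steap3. Both strands were searched for AGATAA or TGATAA, letters that GATA factors bind, and for CCNCNCCC, letters that Klf factors bind and that GC boxes of Sp factors share. Cpox and Steap3 held the GATA letters, 2 of the 5 windows, against 16.9% of the windows of all 27025 genes. The match of Cpox began 86 bases before the start and that of Steap3 45 bases before it. The Klf letters were in 4 of the 5 windows, Cpox being the exception, against 45.6% of all windows. Their matches overlapped each other in Alad and Tfrc. In Abcb6 the matches that began 198 and 194 bases before the start overlapped, and those at 185 and 27 bases stood apart. A match describes the letters alone and no binding was measured. RefSeq listed 2 windows for Alad, 2 for Tfrc and 4 for Steap3. Only the most upstream of each was searched, so letters before the further starts are unknown here. The windows of Cpox (chr16:58669958-58670207, plus strand) and Steap3 (chr1:120271081-120271330, minus strand) are printed because they hold the GATA letters. That of Alad (chr4:62520064-62520313, minus strand) is printed as an enzyme gene whose searched window lacked them. Each is written 5′ to 3′ along the gene, with motif matches in capitals.
Cpox: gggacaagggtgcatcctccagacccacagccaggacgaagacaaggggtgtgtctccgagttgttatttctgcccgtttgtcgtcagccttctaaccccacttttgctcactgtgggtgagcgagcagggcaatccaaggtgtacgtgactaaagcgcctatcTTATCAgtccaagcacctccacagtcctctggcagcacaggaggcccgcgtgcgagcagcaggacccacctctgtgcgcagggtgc
Steap3: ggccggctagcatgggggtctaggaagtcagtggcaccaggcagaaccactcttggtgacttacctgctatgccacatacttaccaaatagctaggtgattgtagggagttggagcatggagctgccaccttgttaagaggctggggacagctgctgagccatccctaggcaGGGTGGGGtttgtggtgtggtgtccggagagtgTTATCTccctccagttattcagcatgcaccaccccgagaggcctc
Alad: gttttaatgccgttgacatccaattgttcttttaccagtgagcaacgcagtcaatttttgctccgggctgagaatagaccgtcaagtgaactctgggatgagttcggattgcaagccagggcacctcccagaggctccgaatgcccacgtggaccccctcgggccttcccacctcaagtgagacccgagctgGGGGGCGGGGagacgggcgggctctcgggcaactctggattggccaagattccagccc
In Cpox and Steap3 the GATA letters lie on the strand opposite to the gene and so read TTATCA and TTATCT. The other capitals in Steap3 and those in Alad mark the Klf letters.

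**Figure D1:**
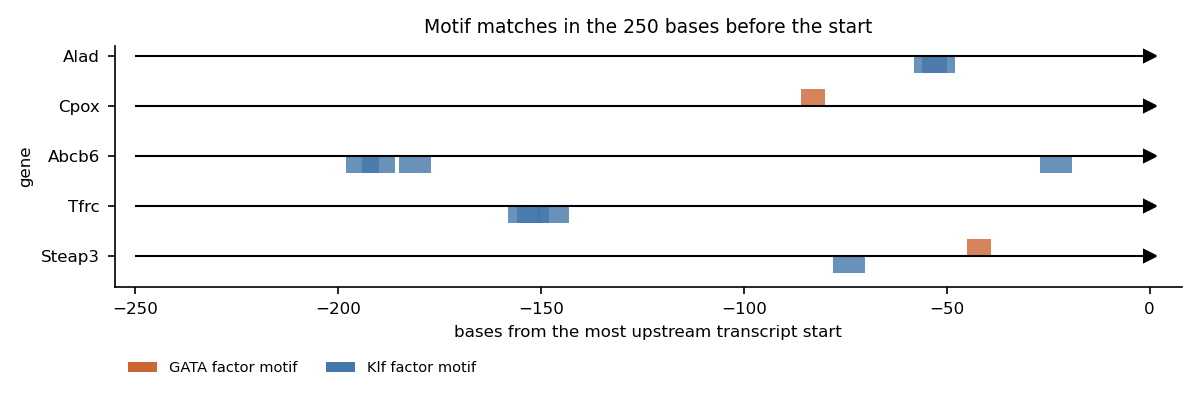
Motif matches in the 250 bases before the most upstream start of 5 genes, with distance from the start in bases on the x axis and 1 line per gene. Orange boxes mark the GATA factor motif, in Cpox and Steap3, and blue boxes the Klf factor motif, in the 4 genes other than Cpox.

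Each array gave log2 expression values for 22626 probe sets, with array medians of 6.94 to 7.01. The value table and the authors' table share 11 probe sets of the 7 genes. A further 3 probe sets, all controls for Tfrc, are in the authors' table alone. The sorting markers Kit and Sca-1 (Ly6a) were not among the named probe sets, so the label of the cells could not be checked against them. Since RNA was taken from whole sorted populations, more cells of a type and more RNA per cell cannot be told apart in any value below.

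All 11 probe sets had higher means in irradiated cells, by 2.08-fold to 3.39-fold. The selection required a difference of at least 2-fold, in either direction. Their median log2 difference was 1.23, and that of all probe sets was 0.01. In limma, fitted over all probe sets with Benjamini-Hochberg adjustment, 10 of the 11 were called higher at an adjusted p under 0.05, and 5.87% of all probe sets were. The selection on this contrast fixed most of that count. Every irradiated array lay above every control array in 4 of the 11, against 3.00% of all probe sets. Those 4 belong to Alad, Cpox (both probe sets) and Slc11a2. At the edge of the selection, the smallest ratio with log2 values was 2.08 for Steap3 and the largest unadjusted p 0.0192 for Tfrc, both in the authors' deposited table. Probe sets outside the table carry no gene name here, so no value of a member outside the threshold can be given.

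The heme synthesis enzymes of the set were higher on every irradiated array. Alad encodes delta-aminolevulinate dehydratase, which joins a pair of aminolevulinate molecules into porphobilinogen. Its control arrays lay at 8.49 to 9.33 (log2, median 8.97) and its irradiated arrays at 9.63 to 10.41 (median 10.09). The gap between the groups was thus smaller than the spread within either of them. The log2 difference was 1.12 (SE 0.17, n = 6 per group), or 2.17-fold. Cpox encodes coproporphyrinogen oxidase, which makes protoporphyrinogen in the mitochondrial intermembrane space. In its brighter probe set the control arrays lay at 7.74 to 8.56 (median 8.11) and the irradiated arrays at 9.10 to 9.90 (median 9.50). The log2 difference of 1.39 (SE 0.18) corresponds to 2.62-fold. In the other Cpox probe set the controls spread more widely, from 6.30 to 7.90 (median 7.50), and the irradiated arrays lay at 8.06 to 9.34 (median 9.02). That probe set differed by 1.48 (SE 0.29), or 2.79-fold, so both Cpox probe sets gave differences within 1 SE of each other.

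Abcb6, an ATP-binding cassette transporter implicated in porphyrin transport, overlapped between the groups. Control arrays lay at 6.16 to 7.91 (log2, median 7.51) and irradiated arrays at 7.37 to 9.17 (median 8.82). Irradiated replicates 2 and 3, at 7.77 and 7.37, were the arrays within the control range, and the other 4 lay above it. The log2 difference was 1.24 (SE 0.36), or 2.37-fold. Its call in limma (adjusted p = 0.0412) was lost when any 1 of 8 arrays was left out, at adjusted p of 0.0550 to 0.0885. These arrays were control replicates 1, 2, 3 and 6 and irradiated replicates 1, 4, 5 and 6.

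Tfrc, Steap3 and Slc11a2 act in turn in the uptake of transferrin iron. Tfrc encodes the transferrin receptor, and its brightest probe set was the 1 of the 11 that missed the threshold in limma (adjusted p = 0.0596). Control arrays of that probe set lay at 7.97 to 9.91 (log2, median 8.97) and irradiated arrays at 9.05 to 10.75 (median 10.28). Control replicates 4, 5 and 6, at 9.91, 9.65 and 9.44, reached the range of the irradiated arrays, while control replicates 1 to 3 lay at 7.97 to 8.49. The log2 difference was 1.11 (SE 0.35), or 2.17-fold. It was called in limma with the replicate set as a term (adjusted p = 0.00610). Without irradiated replicate 3, control replicate 4 or control replicate 5 the adjusted p was 0.0270, 0.0350 and 0.0446. With any other single array left out the probe set was not called. Nor was it called after quantile normalization or in replicates 1 to 3 alone, and its adjusted p in limma reached 0.125 over all alternative fits. In the second Tfrc probe set the controls lay at 8.51 to 9.33 (median 8.82) and the irradiated arrays at 9.14 to 10.37 (median 10.10). There irradiated replicate 3 alone lay within the control range, and the log2 difference was 1.06 (SE 0.22), or 2.08-fold. For the Tfrc control probe sets, which have no values per array here, the authors' deposited table gives ratios of 2.04 at the 3′ end, 2.15 in the middle and 2.41 at the 5′ end.

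Steap3 encodes the endosomal ferrireductase of red cell precursors, which reduces the iron released from transferrin. Its brighter probe set lay at 7.48 to 8.86 (log2, median 8.17) on the control arrays and at 8.64 to 10.01 (median 9.41) on the irradiated arrays. The log2 difference was 1.23 (SE 0.26), or 2.34-fold. The other Steap3 probe set lay at 6.99 to 7.55 (median 7.18) on the controls and at 7.48 to 8.83 (median 8.18) on the irradiated arrays. That difference was 1.05 (SE 0.21), or 2.08-fold. In both, irradiated replicate 3 was the only irradiated array within the control range. Slc11a2 encodes DMT1, the divalent metal transporter that carries ferrous iron out of the endosome. Control arrays lay at 5.87 to 7.02 (median 6.58) and irradiated arrays at 7.21 to 8.16 (median 7.79), with no overlap. The log2 difference was 1.20 (SE 0.20), or 2.30-fold.

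Slc40a1 encodes ferroportin, the cell's iron exporter. Its brighter probe set had the largest difference of the 11 and also the largest SE. Control arrays lay at 4.41 to 6.67 (log2, median 5.43) and irradiated arrays at 5.77 to 8.19 (median 7.78). Irradiated replicates 2 and 3, at 5.79 and 5.77, lay about level with control replicate 6 at 5.78 and below control replicates 4 and 5 at 6.38 and 6.67. The log2 difference was 1.76 (SE 0.53), or 3.39-fold. The call of this probe set (adjusted p = 0.0495) was lost when any 1 of the same 8 arrays as for Abcb6 was left out, at 0.0658 to 0.105. It was also lost after quantile normalization (adjusted p = 0.0501). The dimmer probe set lay at 4.09 to 4.90 (median 4.48) on the controls and at 4.70 to 6.71 (median 5.98) on the irradiated arrays. It differed by 1.34 (SE 0.32), or 2.53-fold, and was the only member probe set among the dimmest 40% of the array.

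**Figure D2:**
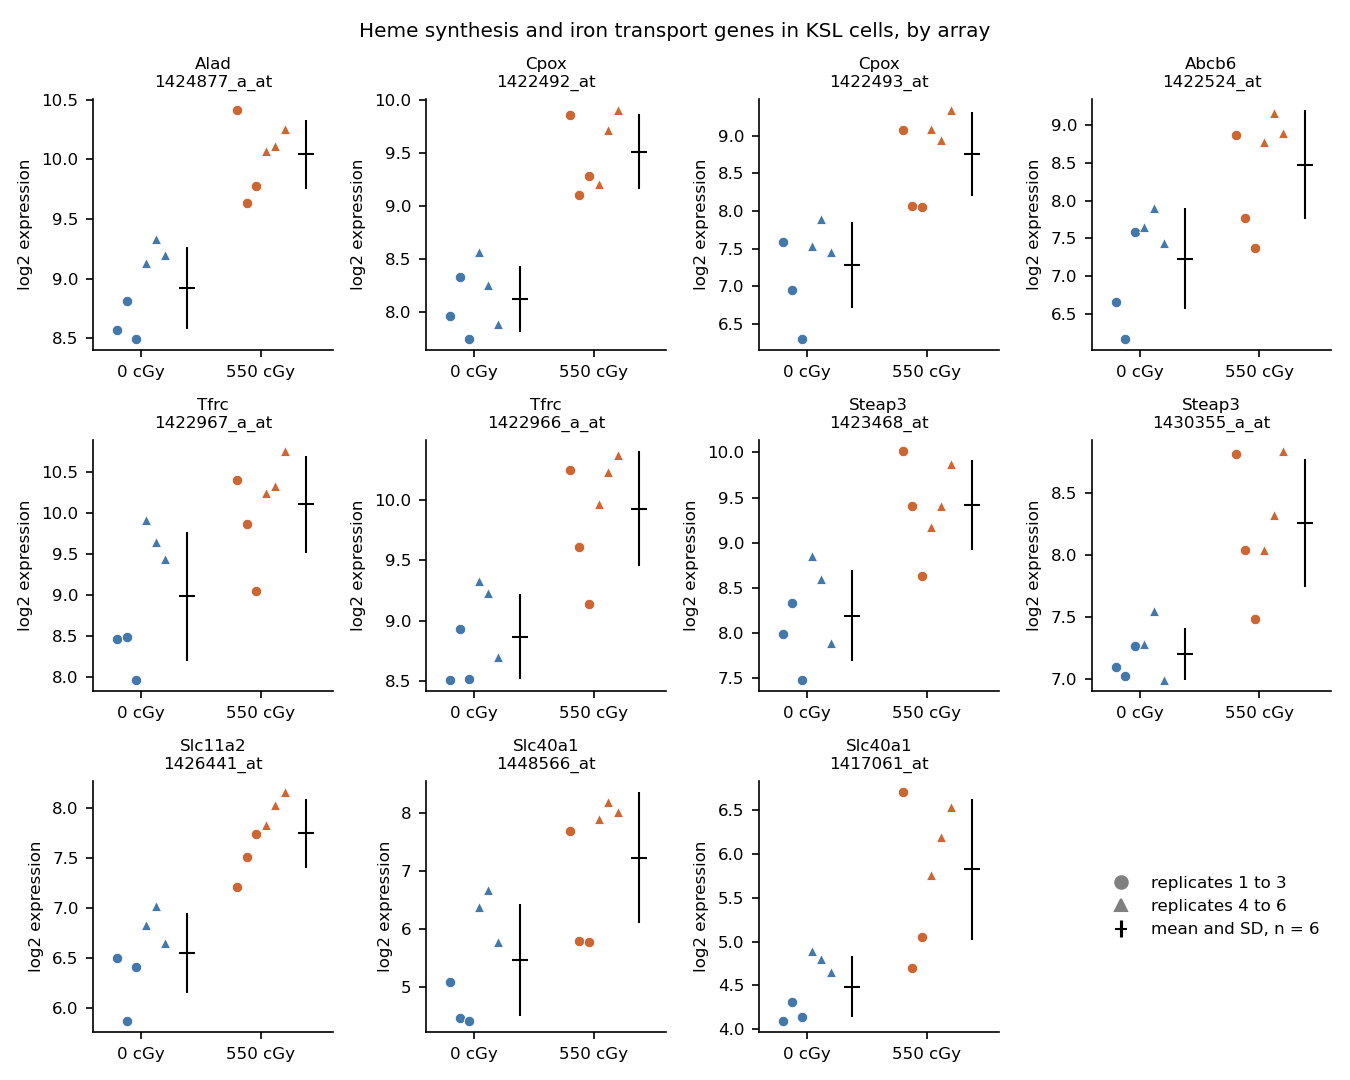
Log2 expression of the 11 probe sets on each array, 1 panel per probe set, with 0 cGy in blue and 550 cGy in orange. Circles are replicates 1 to 3, triangles replicates 4 to 6, and bars the mean and SD (n = 6). The groups separate fully for Alad, both Cpox probe sets and Slc11a2, and overlap in the other 7 panels.

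The arrays of a group were not alike. Replicates 4 to 6 had higher means than replicates 1 to 3 in all 11 probe sets, in the control group and in the irradiated group. Among the controls the gap ran from 0.15 (the dimmer Steap3 probe set) to 1.63 (the brighter Slc40a1 probe set) on the log2 scale, while over all probe sets its median was -0.01. Control replicates 4 to 6 all lay above control replicates 1 to 3 in 5 of the 11, against 15.0% of all probe sets. Those 5 were the probe sets of Alad and Slc11a2, both of Slc40a1, and the brightest of Tfrc. In the irradiated group this separation held in 2 of the 11, against 10.9% of all, namely Slc11a2 and the brighter Slc40a1 probe set. The labels name no batch, so what sets these replicates apart was not tested.

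The groups were also compared within replicates 1 to 3 and within replicates 4 to 6, where fewer arrays leave less room for overlap in any probe set. In replicates 4 to 6 all 11 probe sets had every irradiated array above every control array, against 14.9% of all probe sets. In replicates 1 to 3 this held for 10 of the 11, against 15.7%. The exception was Abcb6, where control replicate 3 at 7.58 lay above irradiated replicate 3 at 7.37. These arrays are the ones that chose the members, so the counts are no independent support. Replicates 1 to 3 gave the 11 probe sets a median log2 difference of 1.31, and replicates 4 to 6 one of 1.17. Slc40a1 differed about equally in both sets, by 1.77 and 1.76 in the brighter probe set. The brightest Tfrc probe set differed by 1.46 and 0.77 and Alad by 1.31 and 0.93. For these Tfrc and Alad probe sets the smaller value came with the higher controls of replicates 4 to 6. The second Tfrc probe set, whose controls were also higher in replicates 4 to 6, differed by 1.02 and 1.10. Of the 11 probe sets 6 had the larger difference in replicates 1 to 3. Whether the change itself differed between the sets was not tested. In replicates 1 to 3 alone, 3 of the 11 were called higher in limma, against 2.38% of all probe sets. In replicates 4 to 6 alone 10 were, against 3.18%.

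**Figure D3:**
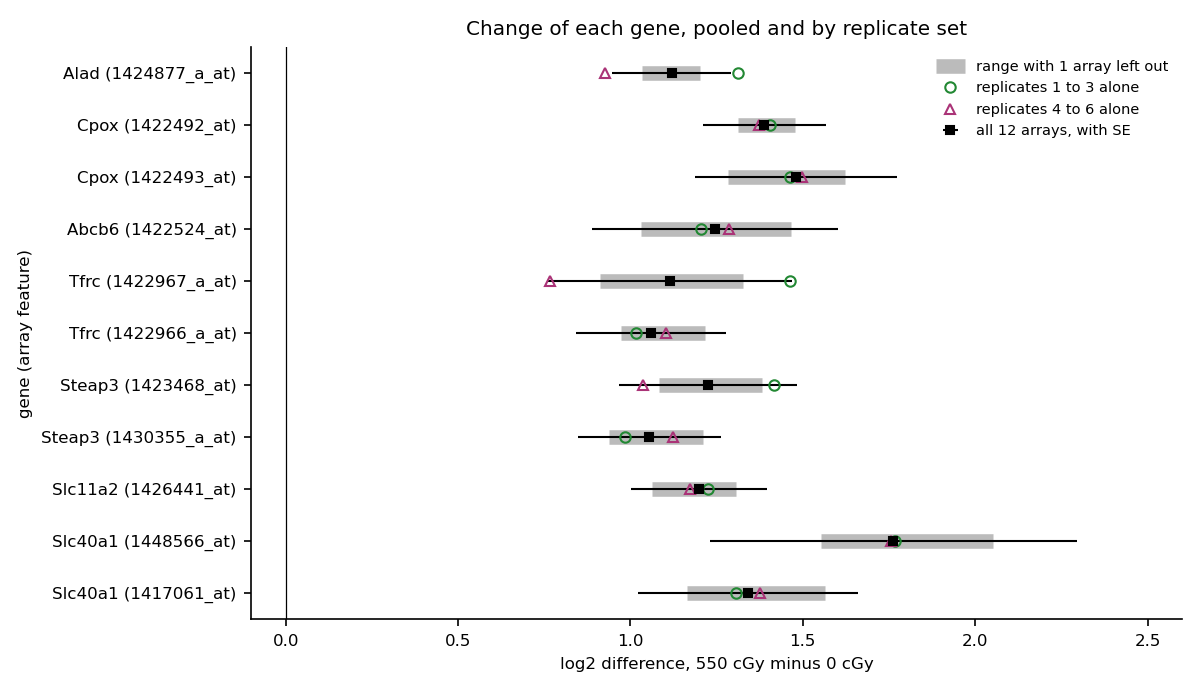
Log2 difference of 550 cGy minus 0 cGy for each probe set: all 12 arrays with SE (squares), replicates 1 to 3 (circles), replicates 4 to 6 (triangles) and the range with 1 array left out (gray). All values lie above 0, and the circle and triangle lie farthest apart for the brightest Tfrc probe set, at 1.46 and 0.77.

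The deviations of the arrays from their group's mean were compared between genes, with the brightest probe set for each gene. The spread of these deviations entered the p by which the genes were chosen. All 7 genes deviated in 1 direction on 6 of the 12 arrays, and on the others they split. All 21 pairs had a Pearson r above 0 over the 12 arrays, with a mean of 0.61. The highest r was 0.88, between Tfrc and Slc40a1, and the lowest 0.11, between Steap3 and Slc11a2. Slc40a1 had the highest mean r with the other 6 genes (0.74), followed by Tfrc (0.73) and Alad (0.68), and Slc11a2 the lowest (0.39). With deviations taken within each replicate set, the mean r fell to 0.36, and 16 of the 21 pairs stayed above 0. The lowest r of a pair was then -0.50 and the highest 0.94. The 12 values share their arrays and labelling and fall into replicate sets, so r is given as a description.

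Irradiated replicate 3 was the lowest irradiated array in 7 of the 11 probe sets, and irradiated replicate 6 the highest in 6. Irradiated replicate 1 was the highest in 3, the brighter Steap3 probe set, the dimmer Slc40a1 probe set and Alad. For Slc11a2 it was the lowest irradiated array, at 7.21, where replicates 2 and 3 lay at 7.51 and 7.74. In the brightest probe sets of the other 6 genes irradiated replicate 1 lay above the group mean. Those 6 did not share 1 order either, as Alad and Cpox were lowest on irradiated replicate 2. The mean log2 value of the 7 genes lay at 7.16 to 8.21 (median 7.54) on the control arrays and at 8.23 to 9.41 (median 9.12) on the irradiated arrays.

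**Figure D4:**
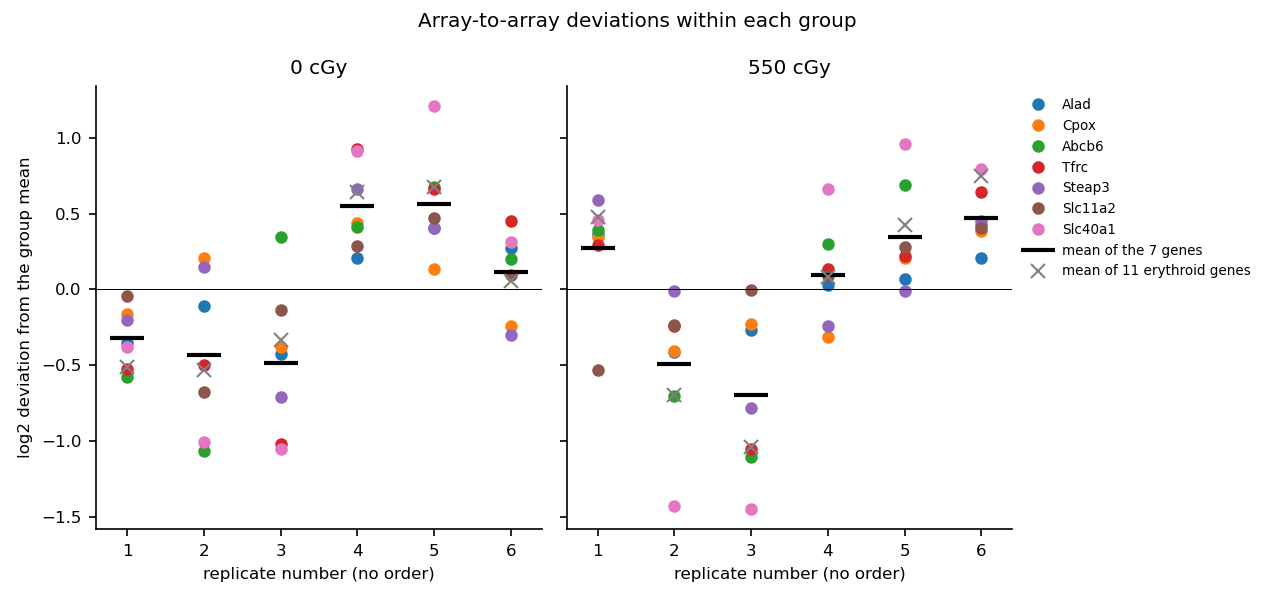
Log2 deviation from the group mean on each array for the 7 genes (brightest probe set), their mean (black bars) and the mean of 11 erythroid genes (gray crosses), with 0 cGy on the left and 550 cGy on the right. Control replicates 1 to 3 and irradiated replicates 2 and 3 lie below 0 on average, and Slc11a2 lies at -0.53 on irradiated replicate 1 where the other 6 genes lie above 0.

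**Figure D5:**
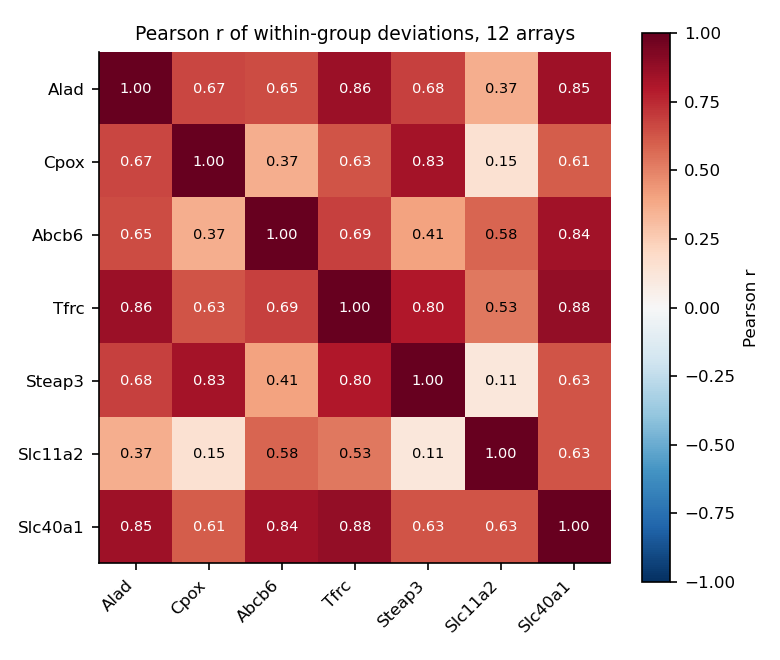
Pearson r between the 7 genes of their deviations from the group mean over 12 arrays, as a color scale from -1 to 1 with each value printed. Slc40a1, Tfrc and Alad correlate with each other at 0.85 to 0.88, and Slc11a2 has the lowest values, 0.11 with Steap3 and 0.15 with Cpox.

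Among the other 318 named genes, the array pattern most like the mean of the 7 was that of Sphk1, a sphingosine kinase (r = 0.98 over 12 arrays). Ces2g, a carboxylesterase, followed at 0.98 and Crip2, a LIM domain protein, at 0.97. They were 3.35-fold, 3.66-fold and 2.77-fold higher in irradiated cells. The pattern least like it was that of Egr1, an immediate early transcription factor (r = -0.92), which was 2.23-fold lower. Taken within replicate sets, these r were 0.96, 0.95, 0.93 and -0.75. Nearest neighbours of single genes differed. Alad was most like Crip2 (0.90) and Cpox most like Ank1, the ankyrin of the red cell membrane (0.88). Abcb6 was most like Epor, the erythropoietin receptor (0.96), and Steap3 most like Pklr, the pyruvate kinase of red cells and liver (0.94). Slc40a1 was most like Septin8 (0.97). Slc11a2 was most like Ldlrad4 (0.88), which differed in the opposite direction between the groups, being 2.07-fold lower. All these genes are in the authors' table, and each was the highest or lowest of many, so the values are descriptions.

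Erythroid markers moved with these genes. Of 16 erythroid markers 11 were in the table, all with higher means, and 9 were called higher, against 5.87% of all probe sets. The table's own selection on this contrast fixed most of that count. Their mean lay at 5.92 to 7.13 on the control arrays and 7.26 to 9.05 on the irradiated arrays (log2). In control replicates 1 to 3 and 4 to 6 it averaged 5.99 and 6.91, and the mean of the 7 genes averaged 7.23 and 8.05. The deviations of both means from their group means correlated at r = 0.98 over the 12 arrays, and at 0.97 within replicate sets. Epor, Gata1 and Klf1, the last an erythroid transcription factor, correlated with the mean of the 7 genes at 0.81, 0.76 and 0.71, and within replicate sets at 0.73, 0.78 and 0.44. The part of erythroid cells or transcripts in the values of the 7 genes was not tested.

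Markers of other cells were few in the table. It held 1 of 13 macrophage markers, Mpeg1, at 7.69 to 9.37 on the controls and 6.59 to 8.27 on the irradiated arrays, with a log2 difference of -1.06 (SE 0.32) that was not called in limma (adjusted p = 0.0522). The 2 of 7 mast cell and basophil markers, Fcer1a and Il1rl1, were called higher, and their mean lay at 5.01 to 6.40 and 6.22 to 7.16. Of 8 megakaryocyte markers 3 were there, with Vwf and Selp called higher and Plek called lower, and a mean level of 7.99 to 8.55 and 8.49 to 9.26. The 1 of 8 granulocyte markers, Ms4a3, was called higher and lay at 7.17 to 9.92 and 10.24 to 10.98. Some of these differences were unequal between the replicate sets. Ms4a3 was 8.87-fold higher in replicates 1 to 3 and 1.40-fold in replicates 4 to 6, and Fcer1a 3.42-fold and 1.34-fold. The log2 difference of Mpeg1 was -0.23 and -1.88 in the same order. Deviations of these lists from their group means correlated with those of the 7 genes at 0.37 (macrophage), 0.38 (mast cell and basophil), -0.18 (megakaryocyte) and 0.53 (granulocyte). These r rest on 1, 2, 3 and 1 genes and that of the erythroid mean on 11, so their sizes are not directly comparable. Their part in the values of the 7 genes was not tested.

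Other genes of heme and iron handling were in the table only in part. Of 73 genes in 6 lists for the pathway, 10 were there, the 7 described and 3 more. Rows of the table that name several genes or none, 18 in number, were not searched for these lists or for the cell markers. All 10 had higher means, and in their brightest probe sets 8 were called higher and 0 lower, against 5.87% and 5.47% of all probe sets. They carry names only through the table's selection on this contrast, so the count is no support. Blvrb, biliverdin reductase B of the heme breakdown pathway, lay at 8.37 to 10.19 (log2, median 9.28) on the controls and at 9.67 to 11.57 (median 11.14) on the irradiated arrays. Its log2 difference was 1.50 (SE 0.37), or 2.82-fold, and it was called in limma (adjusted p = 0.0232). Hebp1, a heme-binding protein, lay at 5.36 to 6.89 (median 6.57) and at 6.52 to 8.08 (median 7.79), a log2 difference of 1.05 (SE 0.32) that was not called in limma (adjusted p = 0.0538). The groups overlapped for both genes. Heme synthesis gave 3 of 10 genes, transport and breakdown of heme 3 of 17, iron uptake 3 of 13 and iron export and storage 1 of 8. The lists for mitochondrial iron and iron-sulfur clusters (12 genes) and for iron and heme regulators (13 genes) gave 0. Among the genes not found in the rows searched are Alas2, the first enzyme of heme synthesis in red cells, Fech, the enzyme that inserts iron, and Fth1, a ferritin chain. Whether they had a probe set that changed by less was not analysed here.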

How the data were processed

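RNA of sorted KSL cells was labelled with biotin and measured on 12 arrays, 6 per group, per the labels. The authors deposited log2 expression values per probe set. The submitters' processing notes list Partek without its role. How the arrays were background-corrected and normalized is unstated in the labels and headers used here. The authors also deposited a table that names the gene of each changed probe set and gives its ratio, fold and unadjusted p-value, besides, per the file headers, scores from an analysis of variance (F and sums of squares). The ratios of the 11 member probe sets were recomputed from the log2 values and differed by at most 1.97e-05 on the log2 scale.

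All probe sets were fitted with limma 3.58.1 in R 4.3.3 (lmFit, eBayes, 1 coefficient for irradiation, no filter), with Benjamini-Hochberg adjustment, and the fit was tested on simulated data. SEs are limma's moderated ones. The members, lists and replicate sets were chosen with earlier results of these data known. Named were all members, list genes of the table, and genes ranked by r of within-group deviations, with the brightest probe set standing for a gene. Older symbols were replaced by those of RefSeq that share the gene ID (GRCm38.p6). Results for some list members are not reported here. Alternatives were subtraction of array medians, quantile normalization, a filter on dim probe sets, the prior, array weights, a replicate block, the replicate sets and leaving out each array. The number of arrays limits the precision. Figures used matplotlib 3.10.9.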

Additional observations from a re-analysis of the deposited data

How the results depend on the processing

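The log2 differences of the 11 probe sets stayed above 0 and within 1 within-group SD of the reported value in all 230 values under the 21 alternatives (20 for the dimmer Slc40a1 probe set, which the filter on dim probe sets removes). Calls moved more than values. Of the 11 probe sets 3 were called in replicates 1 to 3 alone, where 6 arrays enter the fit, and 8 to 11 in the other alternatives. The brightest Tfrc probe set, not called in the reported fit, had adjusted p of 0.00610 to 0.125 over its alternatives, Abcb6 0.00802 to 0.194 and the brighter Slc40a1 probe set 0.00270 to 0.105. Over all probe sets, 2567 were called, against 3932 with the replicate set as a term, 1140 in replicates 1 to 3 alone and 1458 in replicates 4 to 6 alone, and 1513 to 2834 with 1 array left out. The count fell to 1675 without control replicate 1, 1513 without irradiated replicate 1 and 1610 without irradiated replicate 6. The mean r among the 7 genes was 0.608, and 0.358 within replicate sets. Whether the replicate numbers of the labels pair the arrays could not be settled. Same-numbered arrays correlated in their deviations at 0.01 to 0.29, all weakly above 0, and 3 of 12 arrays correlated best with their own number. With a replicate block 11 of the 11 and 2801 of all probe sets were called, the brightest Tfrc probe set among them (adjusted p = 0.0133).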
